A study of Mus musculus with 8 samples.

Results

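KO and WT peritoneal macrophages stimulated with LPS for 4 h were compared on the arrays titled "4h WT and KO", replicates 1 and 2, which are 2 of the 8 arrays of the series. Each is an Agilent 2-colour array, on which the RNA of both genotypes competes for the same spots. The KO RNA carried Cy5 and the WT RNA Cy3 on the array of replicate 1, and the dyes were exchanged on the array of replicate 2. The KO cells came from LysMCre-fur(fl/fl) mice, in which the floxed Furin alleles are deleted by a Cre recombinase expressed from the Lyz2 (lysozyme M) locus, and the WT cells from littermates. Both genotypes are on the C57BL/6 background, and both received LPS from E. coli after a day of adherence in culture, a wash and 1 h in fresh medium. The same comparison was made on the other 6 arrays at 1 h and 24 h and in unstimulated cells, with 2 arrays each. Ages of the animals and the number of mice behind each RNA were not given in the sources used here, and the replicates are called biological in the labels. The values are RNA levels of all cells in the well, so fewer cells of a type and less RNA per cell cannot be told apart.

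FURIN is the best known of the proprotein convertases, proteases of the secretory pathway that cut immature proproteins, among them TGF-beta 1, at basic sites. LPS is bacterial lipopolysaccharide. It is sensed by TLR4 with its partner CD14, and the kinases and the NF-kappaB, AP-1 and interferon regulatory factors below it switch on cytokine and chemokine genes in waves. Immediate early genes come first, and by 4 h secondary genes and feedback inhibitors are also expressed.

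Furin, the targeted gene, was not lower at 4 h in the RNA labelled KO. It had a normalized log2 intensity of 12.02 in labelled WT and 12.02 in labelled KO on the array of replicate 1, and 11.64 in labelled WT and 11.97 in labelled KO on that of replicate 2. Its log2 KO/WT ratios were therefore 0.0012 and 0.33, with a mean of 0.16 ± 0.11 (SE, limma adjusted p = 0.9999), and the levels of the RNA labelled KO and WT overlapped. On the other 6 arrays Furin was lower in KO every time, with mean log2 ratios of -0.72 in unstimulated cells, -0.56 at 1 h and -0.64 at 24 h. The 4 h ratio minus the mean of these was 0.80 ± 0.13 (SE) and did not pass (adjusted p = 0.644, and 0.0632 with the replicate number as a term). A single probe measures Furin, and its position relative to the deleted part of the gene is not known from the files, so that it need not report the deletion in full. Lyz2, which carries the Cre insertion, was lower in the RNA labelled KO on all 8 arrays, with log2 ratios of -1.04 and -1.13 at 4 h. Hp, Apoc1, Cd5l, Ctsk and Trem2 also had the sign at 4 h that they had on all 6 other arrays. These genes were picked after their values were seen, so their agreement is no test of the labels. Because of Furin, the samples at 4 h are called the RNA labelled KO and the RNA labelled WT, or labelled KO and labelled WT beside values, and every direction and every KO/WT ratio below rests on those labels.

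The RNA labelled WT of replicate 1 stood apart in another way. Mgarp, a mitochondrial protein of steroid-producing tissues, had a log2 intensity of 11.13 there, against 5.95 in the RNA labelled KO of the same array, and 5.80 (labelled WT) and 7.87 (labelled KO) on the array of replicate 2. The arrays of replicate 1 at the other time points gave low ratios for Mgarp as well, between -5.04 and -2.98, and those of replicate 2 ratios between 2.04 and 2.31. The signals of 10 markers of adrenal or gonadal steroid-producing cells summed to 9969 intensity units in that RNA and to 3930 to 5490 units in the 3 others. Those of 15 mesothelial and fibroblast markers summed to 12761 units there and to 3212 to 5805 units in the others. Of these markers, 6 of the 10 and 6 of the 15 were well above background. The defining markers of macrophages were clearly present, with all 9 measured markers well above background in each of the 4 RNAs. The part of these other cell types in the results below was not tested, and for most genes named below the value on replicate 2 alone is given beside that on replicate 1.

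Of 36947 genes and transcripts tested, 5 passed an adjusted p of 0.05 (limma, 0.0135% of those tested; 1589 at an unadjusted p under 0.05). The 4 that were higher in the RNA labelled KO (0.0108%) were Has1, Nts, Ccno and Trem1, and Lyz2 was the 1 that was lower (0.00271%). The spread in that test comes from the replicate differences at all 4 time points, with 4 residual degrees of freedom. Because the replicates also differ in dye orientation, the replicate number was added to the fit as a term, and 209 genes and transcripts then passed (0.566%), 122 higher in the RNA labelled KO (0.330%) and 87 lower (0.235%). All 122 of the higher ones had ratios above 0 on both 4 h arrays, whereas 23 of the 87 lower ones had opposite signs on the 2 arrays. The remaining 186 (0.503%), 122 higher and 64 lower, are described below as passing with the replicate term. Among the 18372 well above background on both arrays in at least 1 genotype, 120 were higher and 71 lower, opposite signs counted. The shares of all tested given below also include entries that were not well above background. On a simulated data set the fit with the term made more false calls than its nominal rate, whereas the fit without it made none. The adjusted p-values with the term may therefore be too small, and its calls are less certain. With the term, none passed when the scanner software's processed signals were used. Without the 4 h array of replicate 1, 26 passed, 16 of them among the 209, and without that of replicate 2 the count was also 26, 14 of them among the 209. With the probes of each gene averaged, 95 passed, 93 of them among the 209. Over all tested, the 2 arrays shared little: Pearson's r of their ratios across genes was -0.17, and 44.5% of genes and transcripts had the same sign on both, with 22.1% above 0 and 22.4% below 0 on both arrays. Genes are not independent replicates in that r.

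**Figure D1:**
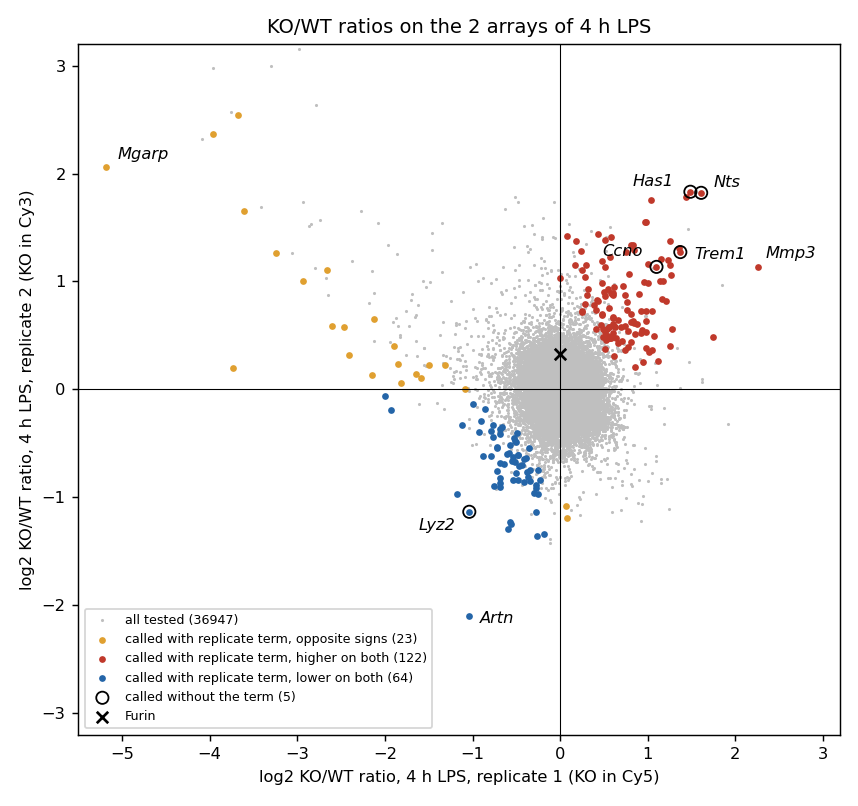
Log2 KO/WT ratio after 4 h of LPS on the array of replicate 1 (horizontal) and of replicate 2 (vertical), with 1 point per gene or transcript tested. Nts, Has1, Trem1 and Ccno lie at the upper right and Lyz2 at the lower left (circled), Furin (cross) lies at 0.0012 and 0.33, and Mgarp is at -5.18 and 2.06.

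The stretches before the annotated starts of the 5 genes are shown because these genes are the ones called at 4 h. They hold the 250 bases upstream of the start, read 5' to 3' along the gene's strand, from RefSeq (build GRCm38.p6). Capitals mark the matches, on either strand, to 3 motifs: TGANTCA, the AP-1 site, TGANNTCA, a spaced form that includes the cAMP response element, and GGGNNNNNCC, a loose form of the kappaB site. The motifs were chosen after the genes were known.
Nts, chr10:102490419-102490668, minus strand: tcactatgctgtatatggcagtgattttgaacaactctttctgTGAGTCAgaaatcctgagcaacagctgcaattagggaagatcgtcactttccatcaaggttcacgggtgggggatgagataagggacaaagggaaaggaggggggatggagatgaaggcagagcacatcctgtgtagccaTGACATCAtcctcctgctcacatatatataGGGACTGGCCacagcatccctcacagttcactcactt
Has1, chr17:17855189-17855438, minus strand: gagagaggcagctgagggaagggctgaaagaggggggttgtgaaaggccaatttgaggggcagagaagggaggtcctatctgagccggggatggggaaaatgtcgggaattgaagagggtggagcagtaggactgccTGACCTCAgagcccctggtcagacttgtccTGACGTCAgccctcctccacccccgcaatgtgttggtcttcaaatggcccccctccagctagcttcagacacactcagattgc
Trem1, chr17:48232489-48232738, plus strand: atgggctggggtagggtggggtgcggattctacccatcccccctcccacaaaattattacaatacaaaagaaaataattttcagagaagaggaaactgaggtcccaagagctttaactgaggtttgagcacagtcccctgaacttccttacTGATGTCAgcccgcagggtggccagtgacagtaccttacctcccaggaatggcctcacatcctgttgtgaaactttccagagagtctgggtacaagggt
Ccno, chr13:112987552-112987801, plus strand: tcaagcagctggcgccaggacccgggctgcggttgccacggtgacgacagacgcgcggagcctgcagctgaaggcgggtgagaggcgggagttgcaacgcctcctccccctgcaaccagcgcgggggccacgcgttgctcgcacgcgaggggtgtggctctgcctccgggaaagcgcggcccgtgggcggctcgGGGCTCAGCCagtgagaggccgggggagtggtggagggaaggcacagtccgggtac
Lyz2, chr10:117282273-117282522, minus strand: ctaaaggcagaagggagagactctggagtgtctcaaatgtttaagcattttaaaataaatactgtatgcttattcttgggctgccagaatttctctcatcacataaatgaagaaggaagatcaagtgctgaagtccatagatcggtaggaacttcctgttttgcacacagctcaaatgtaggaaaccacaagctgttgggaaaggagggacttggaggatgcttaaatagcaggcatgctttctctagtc

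The TGANNTCA form was found before Nts, Has1 and Trem1, which is 3 of the 5 windows, and in 11.9% of 32851 windows of the same length in the RefSeq table. TGANTCA was found before Nts alone of the 5, and in 6.75% of all windows. GGGNNNNNCC was found before Nts and Ccno and in 45.8% of all windows, and the window before Lyz2 held none of the 3. Of the 122 genes and transcripts higher in the RNA labelled KO with the replicate term, 74 have an entry in the table, with 96 windows. TGANTCA was found in 16.7% of these windows, TGANNTCA in 16.7% and GGGNNNNNCC in 62.5%. Over the windows of all genes tested that have an entry the shares were 6.19%, 10.4% and 52.9%. For the 64 lower ones, 40 have an entry, and the shares over their 56 windows were 5.36%, 14.3% and 58.9%. A match is a run of letters and was not measured as a binding site.

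Nts, which encodes the neuropeptide neurotensin, had the largest mean ratio of all genes and transcripts tested. Its log2 intensity was 7.95 in labelled WT and 9.56 in labelled KO on replicate 1, and 7.31 in labelled WT and 9.13 in labelled KO on replicate 2. Both labelled KO levels lay above both labelled WT levels, and the mean log2 ratio was 1.72 ± 0.12 (SE, adjusted p = 0.00648, limma, and 3.89e-05 with the replicate term). Has1, a hyaluronan synthase of the plasma membrane, measured 10.95 in labelled WT and 12.44 in labelled KO on replicate 1, and 9.95 in labelled WT and 11.78 in labelled KO on replicate 2. Here too the genotypes did not overlap, with a mean log2 ratio of 1.66 ± 0.12 (adjusted p = 0.00648). Such separation was frequent, since for 24.4% of all genes and transcripts the labelled KO and WT levels of the 2 arrays did not overlap.

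Trem1, a receptor of myeloid cells known to amplify Toll-like receptor responses, measured 9.77 in labelled WT and 11.14 in labelled KO on replicate 1, and 8.95 in labelled WT and 10.22 in labelled KO on replicate 2. Its mean log2 ratio was 1.32 ± 0.11 (adjusted p = 0.0135), without overlap of the genotypes. Ccno encodes cyclin O, known for its role in multiciliated cells. It measured 10.36 in labelled WT and 11.46 in labelled KO on replicate 1, but 9.12 in labelled WT and 10.25 in labelled KO on replicate 2. The labelled KO level of replicate 2 thus lay below the labelled WT level of replicate 1, while the ratios within the arrays were close to each other (mean 1.12 ± 0.11, adjusted p = 0.0399). Lyz2, the lysozyme of macrophages, was the gene with the highest signal of the 5, at 17.27 in labelled WT and 16.24 in labelled KO on replicate 1 and 16.89 in labelled WT and 15.76 in labelled KO on replicate 2. Its mean log2 ratio was -1.09 ± 0.11 (adjusted p = 0.0399). The calls of Ccno and Lyz2 lay close to the threshold and were lost under 13 and 14 of the 21 alternative analyses, those of Nts, Has1 and Trem1 under 4 each. These 4 were the use of the scanner software's processed signals, the omission of either 4 h array and the methods' t-test, with adjusted p up to 0.9999.

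**Figure D2:**
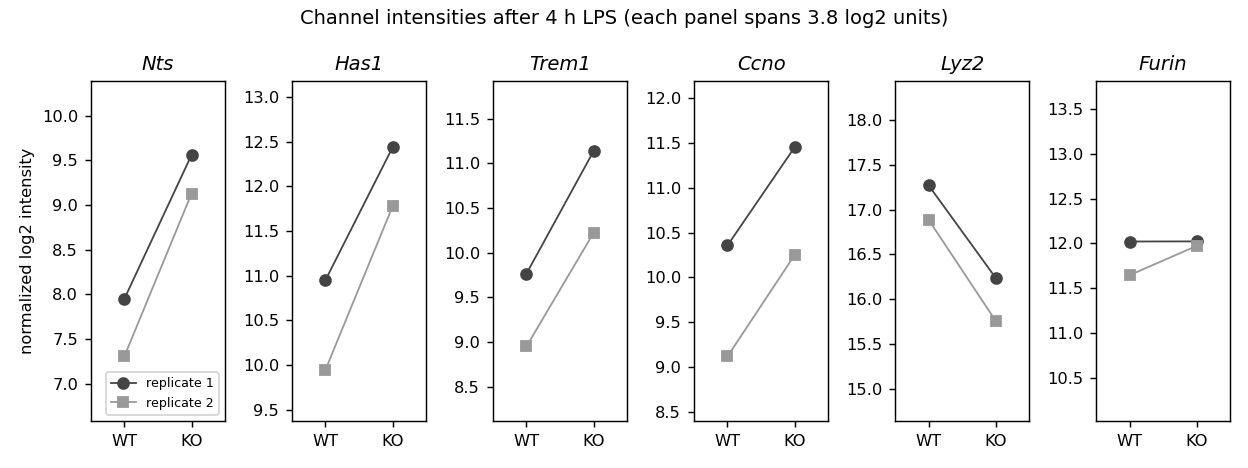
Normalized log2 intensity of the genes called at 4 h and of Furin in the RNA labelled WT and KO, with 1 line per array (circles, replicate 1, and squares, replicate 2). The lines of Nts, Has1, Trem1 and Ccno rise by up to 1.83 (Has1, replicate 2) and those of Lyz2 run down by about the same amount on both arrays, whereas those of Furin run flat or rise by 0.33.

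With the replicate term, 24 genes and transcripts were more than 2-fold higher in the RNA labelled KO and 5 more than 2-fold lower, counting those with the same sign on both arrays. Beside Nts, Has1 and Trem1, the 10 largest increases were those of Mmp3, Abca1, Csf3, Il19, F3, Thbs1 and Asb4. Mmp3 encodes stromelysin-1, a protease of the extracellular matrix, and measured 8.56 in labelled WT and 10.82 in labelled KO on replicate 1, and 8.69 in labelled WT and 9.82 in labelled KO on replicate 2 (mean log2 ratio 1.69 ± 0.42, adjusted p = 0.592, and 0.0112 with the replicate term). Abca1, the exporter of cellular cholesterol, measured 10.36 in labelled WT and 11.80 in labelled KO on replicate 1, and 9.56 in labelled WT and 11.35 in labelled KO on replicate 2 (1.61 ± 0.18, adjusted p = 0.0723, and 0.00353 with the term). For both genes all labelled KO levels lay above all labelled WT levels.

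F3, tissue factor, which starts the clotting cascade, had log2 ratios of 1.25 and 1.37 (adjusted p = 0.897, and 0.0129 with the term). Thbs1, the matrix protein thrombospondin-1, had ratios of 0.98 and 1.55 (0.26 and 0.0108). Asb4, a SOCS box protein, had ratios of 0.97 and 1.55 (0.0949 and 0.00238), but its second probe, also well above background, had 0.15 and 0.040. The mean of both probes of Asb4 gave 0.68 (adjusted p = 0.0221 with the term). In these 3 genes, as in Csf3 and Il19 described with the cytokines, the genotypes did not overlap.

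The largest decreases with the replicate term among named genes with a shared sign, well above background on both arrays in at least 1 genotype, were those of Artn, Lyz2, Hp, Cyp7b1, Clmp, Rnase10, Xylt2, Osbpl3, Mtdh and Sgms1. Of the 5 that were more than 2-fold lower, Artn, Lyz2 and Hp are among these. The other 2, Adh1, named after its values were seen, and a transcript without a gene name, were not well above background in labelled KO on either array and in labelled WT on 1 array only. Artn encodes artemin, a neurotrophic factor of the GDNF family, and measured 9.72 in labelled WT and 8.68 in labelled KO on replicate 1, and 10.69 in labelled WT and 8.59 in labelled KO on replicate 2 (mean log2 ratio -1.57 ± 0.44, adjusted p = 0.776, and 0.00752 with the term). Hp, haptoglobin, which binds free haemoglobin, measured 14.61 in labelled WT and 13.43 in labelled KO on replicate 1, and 14.76 in labelled WT and 13.79 in labelled KO on replicate 2 (-1.07 ± 0.19, adjusted p = 0.26, and 0.0186 with the term). Cyp7b1, an oxysterol hydroxylase, had ratios of -0.56 and -1.25, and Rnase10 had -0.27 and -1.36. The ratios of the other 5, at the probe used, were close on both arrays: Clmp, a junction protein, had -0.76 and -0.89, Xylt2, which starts glycosaminoglycan chains, -0.68 and -0.90, and Osbpl3, of the oxysterol-binding protein family, -0.69 and -0.87. Mtdh had -0.69 and -0.83 and Sgms1, a sphingomyelin synthase, -0.88 and -0.62. None of these genes other than Lyz2 passed without the term. The second probe of Clmp had ratios of -0.56 and -0.26. That of Osbpl3, well above background in all 4 RNAs, had -0.20 and -1.23. With probes averaged, when genes of a single probe lost calls as well, Clmp, Xylt2, Osbpl3, F3, Il19, Hcar2, Hmox1 and Sort1 no longer passed with the term, whereas Asb4, Cxcl9 and Slco3a1 did. The averaged mean ratios of Il19 (1.30), F3 (1.22), Osbpl3 (-0.75) and Hmox1 (-0.65) stayed close to those of the single probe.

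The gene lists below were drawn up with earlier results of these data known, so calls within them do not test the lists. Among the inflammatory cytokines, most of the best known LPS products did not pass either test. Of 23 genes tested, 3 passed with the replicate term, all higher in the RNA labelled KO (0.330% of all tested), and the median log2 ratio of the list was 0.19, beside -0.00069 over all tested. The 3 are Csf3, Il19 and Lif, of which Lif was named after its values were seen. Csf3 (G-CSF, the granulocyte growth factor) measured 13.38 in labelled WT and 14.42 in labelled KO on replicate 1, and 12.25 in labelled WT on replicate 2 with a log2 ratio of 1.76 there and 1.04 on replicate 1 (SE of the mean 0.24, adjusted p = 0.26, and 0.0143 with the term). Il19, a cytokine of the IL-10 family, measured 12.35 and 12.14 in labelled WT and 13.71 and 13.45 in labelled KO, with ratios of 1.36 and 1.31 (adjusted p = 0.127, and 0.0079 with the term). Lif, a cytokine of the IL-6 family, had ratios of 1.28 and 0.56.

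Il33, an alarmin cytokine of the IL-1 family, measured 7.99 in labelled WT and 9.45 in labelled KO on replicate 1, and 7.65 in labelled WT and 9.14 in labelled KO on replicate 2. Its ratios of 1.46 and 1.49 were among the largest at 4 h, but it did not pass (adjusted p = 0.677, and 0.0635 with the replicate term). At 24 h its ratios were -0.81 and 1.38, and it passed at 4 h when either 24 h array was left out (limma adjusted p = 0.0183) and with the 4 h arrays alone (0.00144). Csf2 (GM-CSF) had ratios of 1.85 and 0.97 and did not pass either (0.806 and 0.12).

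Tnf measured 17.78 in labelled WT and 17.90 in labelled KO on replicate 1, and 17.90 in labelled WT and 17.09 in labelled KO on replicate 2, so that its ratios of 0.12 and -0.81 had opposite signs. Il1b had ratios of 0.14 and 0.39 and Il6 of 0.38 and 0.44, with adjusted p of 0.799 and 0.661 with the replicate term. Il10, the main anti-inflammatory cytokine of macrophages, had ratios of -0.56 and 0.66, Ifnb1 of 0.10 and -0.40, and Il15 of -0.19 and 0.28. For none of these 6 genes was a difference shown at 4 h.

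Of 23 chemokine genes, 1 passed as higher with the replicate term (0.330% of all tested), and the median log2 ratio was 0.10. It was Cxcl9, an interferon-induced ligand of CXCR3, with 10.40 in labelled WT and 11.00 in labelled KO on replicate 1, and 10.40 in labelled WT and 11.30 in labelled KO on replicate 2 (adjusted p = 0.00901 with the term). Ccl7 measured 14.83 in labelled WT and 15.39 in labelled KO on replicate 1, and 13.89 in labelled WT and 15.39 in labelled KO on replicate 2. Its mean ratio of 1.03 ± 0.56 was as large as that of many genes that passed, but its adjusted p was 0.343 with the term. Ccl2, the monocyte attractant, had ratios of 0.46 and 0.47 (0.391 with the term), and Ccl12 of 0.37 and 0.85 (0.714).

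Of 36 components of the LPS receptor and its signalling path, Fos alone passed with the replicate term (as higher, against 0.330% of all tested), and the list's median was 0.034. Fos had ratios of 0.30 and 1.15 (adjusted p = 0.037 with the term). Cd14, the LPS co-receptor, had ratios of 0.17 and 1.05 (0.433), and Mapk14, the p38 kinase, of -0.20 and -0.84 (0.106). Of 24 negative regulators of this path, Il1rn, the antagonist of the IL-1 receptor, passed as higher (0.330% of all tested). Its ratios were 0.18 and 1.37 (0.0119). The median of this list was 0.14, with -0.0046 on replicate 1 and 0.25 on replicate 2. Dusp16 and Dusp2, phosphatases of MAP kinases, had ratios of 0.36 and 0.79, and of 0.16 and 0.64, and did not pass.

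The immediate early genes had a median of 0.30, the highest of the lists other than cell type markers, with 0.14 on replicate 1 and 0.27 on replicate 2. Of 24 members, 5 passed with the replicate term, all higher in the RNA labelled KO, where 0.330% of all tested did: the nuclear receptors Nr4a1, Nr4a2 and Nr4a3, Fos and Dusp6, a phosphatase of ERK. Nr4a1 measured 14.10 in labelled WT and 14.95 in labelled KO on replicate 1, and 13.91 in labelled WT and 14.53 in labelled KO on replicate 2 (adjusted p = 0.0285 with the term). Nr4a2 had ratios of 0.50 and 0.90 and Nr4a3 of 0.60 and 0.67, and both were named after their values were seen. Dusp6 had ratios of 0.98 and 0.53 (0.026). In all, 13 members were above 0 on both arrays (22.1% of all tested), 3 below 0 on both (22.4% of all tested) and 8 had opposite signs.

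Of 32 interferon-stimulated genes, 15 were above 0 on both arrays and 1 below (22.1% and 22.4% of all tested). Their median ratio was 0.10, with 0.033 on replicate 1 and 0.12 on replicate 2. Ifi44 alone passed with the replicate term, as higher (0.330% of all tested), with ratios of 0.43 and 1.44 (adjusted p = 0.0176). Iigp1 and Tgtp1, immunity-related GTPases, had ratios of 0.18 and 0.85 and of 0.17 and 0.27, and did not pass.

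Of 25 M1-associated enzymes and receptors, Hcar2, the niacin receptor, passed as higher (0.330% of all tested), and the median was 0.080. Hcar2 had ratios of 0.32 and 0.93 (adjusted p = 0.0438 with the term). Nos2, the inducible nitric oxide synthase, measured 13.66 in labelled WT and 13.46 in labelled KO on replicate 1, and 12.77 in labelled WT and 14.16 in labelled KO on replicate 2. Its ratios of -0.21 and 1.39 did not share a sign. Of 22 M2-associated genes none passed, with a median of -0.013. Arg1, arginase 1, had ratios of -0.80 and 0.14, Retnla of -0.39 and -0.27, Chil3 of 0.39 and 0.47 and Clec10a of 0.68 and 0.27.

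Trem1 and Trem3 were the members of the TREM group that passed with the replicate term, both as higher (0.330% of all tested), of 8 tested. Trem3, an activating receptor like Trem1, was not well above background in the RNA labelled WT on either array. Its labelled KO level was at least 1.45-fold above the lowest signal that is well above background there, with measured mean log2 intensities of 7.05 in labelled KO and 6.42 in labelled WT after the Aquantile normalization used for that bound (adjusted p = 0.26, and 0.0161 with the term). Trem2 had ratios of -0.18 and -0.35 and did not pass. The median of the group was 0.017.

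In the group of hyaluronan synthesis and binding, Has1 was higher and Stab1 lower with the replicate term (0.330% and 0.235% of all tested), of 14 tested. Stab1 encodes stabilin-1, a scavenger receptor of macrophages, and had ratios of -0.72 and -0.55 (adjusted p = 0.0296 with the term), although the labelled KO and WT levels overlapped between the arrays. Vcan, the hyaluronan-binding proteoglycan versican, had ratios of 0.05 and 0.26. Of 14 cyclins and related genes Ccno alone passed, as higher (0.330% of all tested with the term). Ccnd1 had ratios of 0.40 and 0.45 and Ccnd3 of 0.36 and 0.34, with adjusted p of 0.281 and 0.217 with the term.

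None of 9 proprotein convertases passed in either test, and their median ratio was -0.030, with 5 of them well above background. Mbtps1, the site-1 protease, had ratios of -0.13 and -0.03. Of 33 FURIN substrates and TGF-beta pathway genes, Sort1 alone passed with the replicate term, as lower (0.235% of all tested). Sort1 encodes the sorting receptor sortilin and measured 9.03 in labelled WT and 8.76 in labelled KO on replicate 1, and 9.40 in labelled WT and 8.27 in labelled KO on replicate 2 (adjusted p = 0.0123 with the term). The 2 other probes of Sort1, both well above background, had mean ratios of -0.034 and -0.17, and the first of them was the brightest at 4 h. The mean of the 3 probes of Sort1 was -0.30 and did not pass (0.371 with the term). Tgfb1 had ratios of 0.53 and 0.09 (0.245) and Bmp2 of 0.27 and 0.32 (0.635). The median of the list was 0.029.

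The scavenger and lipid receptors held genes of either direction. Of 19 tested, Abca1, Apoc1 and Cd5l were higher (0.330% of all tested) and Stab1 lower (0.235%) with the replicate term, with a median of 0.040. Apoc1, an apolipoprotein, measured 11.45 in labelled WT and 12.20 in labelled KO on replicate 1, and 10.22 in labelled WT and 11.49 in labelled KO on replicate 2 (adjusted p = 0.00658 with the term). Cd5l, a secreted protein of tissue macrophages, had ratios of 0.81 and 0.62 (0.0196). Olr1, a receptor of oxidized LDL, had ratios of 0.54 and 0.32 and did not pass (0.371). Apoc1 and Thbs1 were also the members that passed, as higher (0.330% of all tested), among 28 genes of large peritoneal macrophage identity. The median of these 28 was 0.14. F5, coagulation factor V, had ratios of 0.39 and 0.70 there (0.167). Of 15 genes of small peritoneal macrophages and monocytes none passed, and Itgax had ratios of -0.11 and -0.32.

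Lysosomal genes had a median of -0.20, the lowest of the lists other than cell type markers, with -0.033 on replicate 1 and -0.23 on replicate 2. Of 19 tested, Lyz2 alone passed, as lower (0.235% of all tested with the term). Of the 19, 8 were below 0 on both arrays and 3 above (22.4% and 22.1% of all tested). Ctsk, cathepsin K, had ratios of -0.44 and -0.45 (adjusted p = 0.056 with the term), and Lamp1 of -0.07 and -0.62 (0.25). Lyz1, the neighbouring lysozyme gene, had ratios of 0.09 and -0.62 (0.66). The metallothionein, iron and antioxidant genes had a median of -0.18, and Hp and Hmox1 were lower with the term (0.235% of all tested), of 20 tested. Hmox1, heme oxygenase 1, measured 14.75 in labelled WT and 14.46 in labelled KO on replicate 1, and 15.42 in labelled WT and 14.46 in labelled KO on replicate 2 (0.0269). Gclm, of glutathione synthesis, had ratios of -0.17 and -0.81 (0.149).

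The 10 MHC class II genes had a median of -0.14, with -0.26 on replicate 1 and -0.025 on replicate 2. None passed, 7 were below 0 on both arrays (22.4% of all tested) and none above, and the members furthest from 0 with a shared sign were H2-Ob (-0.26 and -0.16), H2-Eb1 (-0.27 and -0.14) and H2-DMb2 (-0.30 and -0.03). B cells also express these genes, and the 9 B cell markers measured had a median of -0.20, with 6 below 0 on both arrays (22.4% of all tested). The B cell medians were -0.12 on replicate 1 and -0.15 on replicate 2. Whether B cells have a part in the MHC class II ratios was not tested. Of 20 genes of DNA replication and mitosis, 10 were above 0 on both arrays and 1 below (22.1% and 22.4% of all tested). Their median was 0.13, with 0.0048 on replicate 1 and 0.23 on replicate 2. Top2a, topoisomerase II alpha, alone passed, as higher (0.330% of all tested), with ratios of 0.29 and 0.79 (adjusted p = 0.0412 with the term). Tyms had ratios of 0.50 and 0.81 (0.056) and Mki67 of 0.49 and 0.32 (0.197).

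None of the genes of glycolysis (18 tested), respiratory chain subunits (19), amino acid stress (20), inflammasome and pyroptosis (16) and housekeeping (14) passed. Their medians lay between -0.085 and 0.0035. Hk2, hexokinase 2, had ratios of 0.37 and 0.71 (adjusted p = 0.26 with the term), Pgam1 of -0.40 and -0.25 and Gpi1 of -0.14 and -0.46. Nlrp3, the sensor of the inflammasome, had ratios of 0.36 and 0.14, and P2rx7, the ATP receptor, of -0.17 and -0.38. Slc7a5, of amino acid uptake, had ratios of 0.24 and 0.12, while Gpt2 had -0.20 and -0.37 and Cars -0.07 and -0.35. The largest with a shared sign on both arrays in the respiratory chain were Cyc1 at -0.16 and -0.09, Atp5a1 at -0.02 and -0.22 and Uqcrc2 at -0.01 and -0.19. Among housekeeping genes Gusb had -0.21 and -0.33, Rpl13a -0.21 and -0.05 and Ywhaz 0.18 and 0.08.

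**Figure D3:**
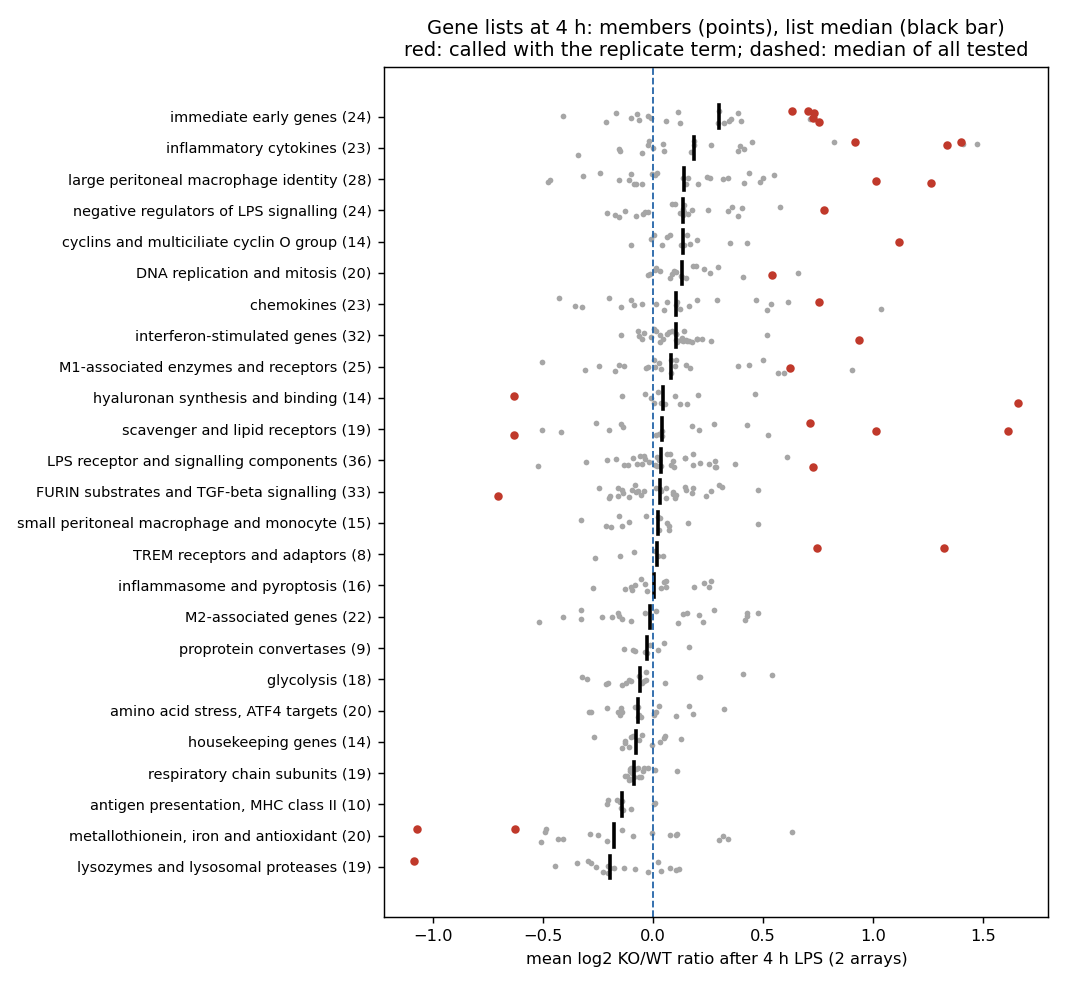
Mean log2 KO/WT ratio at 4 h (horizontal) of the members of each gene list, with the number tested in brackets, the list median as a bar, members that passed with the replicate term in red and the median of all tested as a dashed line. The medians run from -0.20 for lysozymes and lysosomal proteases to 0.30 for immediate early genes.

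To see whether the 4 h ratios were related to the response to LPS, genes were classed by the mean log2 intensity of both genotypes at 4 h minus that without LPS. Of those tested, 2286 were higher by at least 1 (LPS-raised) and 2955 lower by at least 1 (LPS-lowered). The median log2 KO/WT ratio of the LPS-raised genes was 0.065, with 0.066 on replicate 1 and 0.086 on replicate 2. That of the LPS-lowered genes was -0.090, with -0.072 and -0.11, and that of the other 31706 was 0.0015. With the replicate term, and counting genes with the same sign on both arrays, 66 LPS-raised genes were higher in the RNA labelled KO and 12 lower (3.41% of the class in all), against 7 higher and 28 lower among the LPS-lowered (1.18%) and 49 and 24 among the others (0.230%). All 2286 LPS-raised genes were well above background on both 4 h arrays in at least 1 genotype, against 2645 LPS-lowered and 13441 others. The shares of calls therefore compare classes that differ in detection. The medians of the raised and the lowered class lay on opposite sides of 0 on both arrays, by small amounts. The LPS-raised members included Nts, Has1 and Ccno, whose mean log2 changes with LPS were 2.11, 4.95 and 2.86. Trem1 was not one of them, with a change of 0.31. The classes rest on the same 4 h arrays as the ratios, but weigh KO and WT alike.

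**Figure D4:**
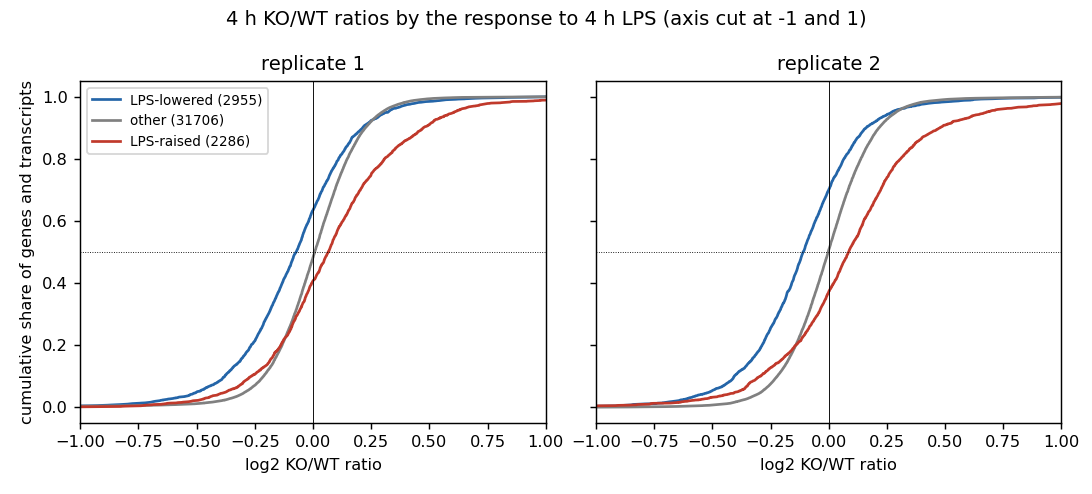
Cumulative share of genes and transcripts (vertical) against the log2 KO/WT ratio at 4 h (horizontal, shown from -1 to 1) on each array, for LPS-raised, LPS-lowered and other genes. On both arrays the LPS-lowered curve crosses the midline left of 0 (-0.072 and -0.11) and the LPS-raised curve right of it (0.066 and 0.086).

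The ratio at 4 h was then set against those at the other time points. Without the replicate term no gene passed for the 4 h ratio minus the unstimulated ratio (limma; 1071 at an unadjusted p under 0.05), nor for the 4 h ratio minus the mean of the other 3 time points (1115). With the term, 12 passed for the first difference (0.0325%), 8 higher and 4 lower at 4 h, and 19 for the second (0.0514%), 17 higher and 2 lower. Both differences share the 4 h arrays, so they are not independent of each other or of the comparison at 4 h itself.

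Neither difference had a call with the processed signals. With probes averaged, Nts alone passed for the first, and Nts, Has1, Trem1, Ccno, Asb4 and Gab1 were among the 7 that passed for the second. At the probe used, Nts, Has1 and Trem1 passed for both differences. Nts had mean log2 ratios of 0.043 in unstimulated cells, 0.43 at 1 h, 1.72 at 4 h and 0.63 at 24 h. Those of Has1 were 0.015, 0.47, 1.66 and 0.42 in the same order, and those of Trem1 -0.025, 0.30, 1.32 and -0.040. Ccno turned from -0.46 after 1 h to 1.12 after 4 h and had 0.10 and -0.098 at the other 2 time points. It passed for the second difference, of 1.27 (adjusted p = 0.00406 with the term). Abca1, with mean ratios from -0.43 to -0.016 at the other time points, passed for the second difference as well, and Asb4 and Gab1, an adaptor of receptor tyrosine kinases, for both. Gab1 had 4 h ratios of 0.58 and 1.42. In contrast, Lyz2 was lower at all 4 time points, with means of -0.87, -0.93, -1.09 and -1.73.

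Ccl4, Rtp4, Dab2ip and Adm passed as lower at 4 h than without LPS. Ccl4, a chemokine of activated macrophages, had a mean ratio of 1.04 without LPS and -0.20 at 4 h, where its level was 17.57 and 17.72 in labelled WT and 17.43 and 17.46 in labelled KO. Rtp4, an interferon-induced gene, had 1.13 without LPS and -0.0044 at 4 h (-0.20 and 0.19 on the 2 arrays), and Dab2ip 0.92 and -0.21 (0.11 and -0.52). With probes averaged none of these 4 passed, with adjusted p from 0.0684 (Rtp4) to 0.278 (Dab2ip, whose second probe was not well above background). Adm, adrenomedullin, had 0.32 without LPS and -0.69 at 4 h (-0.54 and -0.84). Of the cytokines and chemokines named above, Il1b (1.34), Il6 (1.25), Ccl2 (1.93) and Ccl7 (2.39) had higher mean ratios without LPS than at 4 h, but none of these 4 passed for the difference. Sgms1 and Cd3d passed as lower than the mean of the other time points. Cd3d, a subunit of the T cell receptor complex, had ratios of 0.81 and -0.88 at 4 h.

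**Figure D5:**
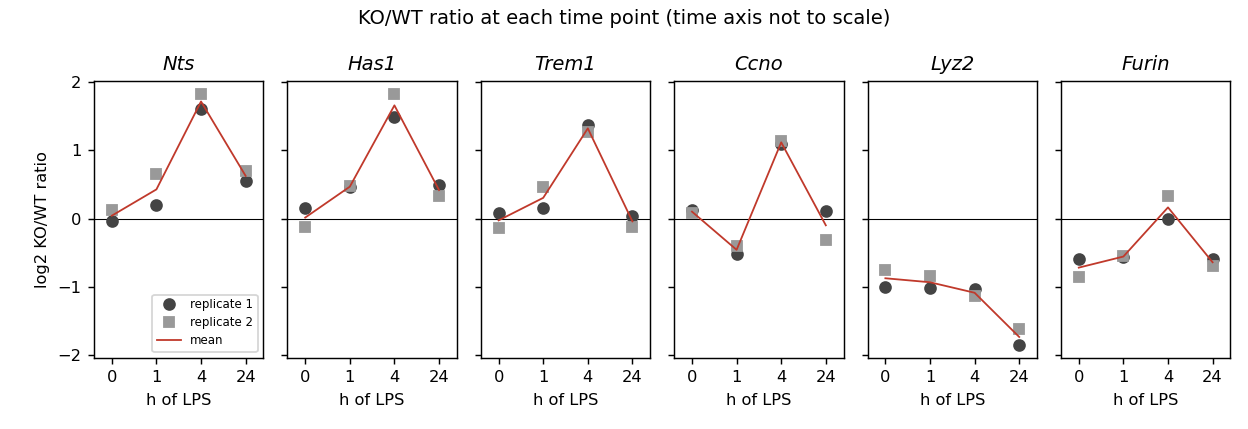
Log2 KO/WT ratio of the genes called at 4 h and of Furin (vertical) against hours of LPS (horizontal, not to scale), with 1 symbol per array and a line through the means. Nts, Has1, Trem1 and Ccno peak at 4 h (means 1.12 to 1.72), Lyz2 is below 0 throughout, and Furin is at 0.16 at 4 h and below 0 at the other time points.

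Because the KO mice carry introduced alleles at Furin and Lyz2, the genes lying around these loci were examined. Of the 200 measured genes nearest to Lyz2 by gene order, 100 on each side, 3 were higher with the replicate term (0.330% of all tested) and none lower: Nts, Dusp6 and Tmtc2, the last named after its values were seen, with ratios of 0.51 and 0.86. Between Nts and Lyz2 lie 63 measured genes of chromosome 10. The median ratio of the 200 was -0.0038, and Phlda1 had ratios of 0.98 and 0.68 without passing (adjusted p = 0.11 with the term). Of the 200 nearest to Furin, Slco3a1, an organic anion transporter, and Mctp2 were higher (0.330% of all tested), with ratios of 1.05 and 0.73 (0.00342) and 0.71 and 0.44 (0.02), and the median was 0.0053. Cpeb1 had -0.52 and -0.50 and did not pass (0.185). Whether sequence differences near the introduced alleles have a part in these values was not tested.

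The 2 arrays of 4 h disagreed in many genes. Among genes and transcripts well above background in at least 1 genotype, 308 differed more than 2-fold in their KO/WT ratio between the arrays. On replicate 1 the ratio was far lower for Mgarp (-5.18, against 2.06 on replicate 2), Hsd3b1, an enzyme of steroid synthesis (-4.09 and 2.32), and Ephx2, an epoxide hydrolase (-3.96 and 2.98). It was higher on replicate 1 for Vipr1, the VIP receptor (1.24 and -1.11), Tcf7, a factor of T cells (0.93 and -1.21), and Kbtbd11 (0.94 and -1.06). The 10 T and NK cell markers had median ratios of 0.20 on replicate 1 and -0.34 on replicate 2, and 9 mast cell markers -0.074 and 0.92. Of these 2 lists none passed in either test. Xist, the RNA of the inactive X chromosome, had ratios of 0.45 and 0.29 and did not pass, and none of 4 Y chromosome genes was well above background. Of 9 macrophage markers, Lyz2 and Csf1r, the receptor of the macrophage growth factor, were lower with the replicate term (0.235% of all tested). Csf1r had ratios of -0.42 and -0.64, and the median of the 9 was 0.0092. Of 15 mesothelial and fibroblast markers Col1a2 was lower with the replicate term (0.235% of all tested), with ratios of -0.55 and -0.66. Csf1r and Col1a2 were named after their values were seen.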

How the data were processed

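RNA of KO and WT macrophages was hybridised together on Agilent 8x60K mouse arrays, all 8 on 1 slide. Per the file headers, the authors' intensity values are medians of the pixels of each spot and of its local background, quantified with Agilent Feature Extraction 10.7.3, and no spot of a gene was saturated at 4 h. The deposited table of log2 ratios was made by the authors in limma with loess and quantile normalization. Set against the scanner values it is log2 of Cy5 over Cy3 (r = 0.665 to 0.746 with its own array, at most 0.426 with another), with column medians of 0.0030 to 0.0085, and it served as an alternative.

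Median intensities were corrected with normexp (offset 50), normalized by loess within and quantile between arrays, and turned to KO over WT, in limma 3.58.1 (R 4.3.3). Control spots and outlier spots (241 and 207 at 4 h) were left out. Of 55681 probes, 27509 carry a gene name. The brightest probe stood for each of 20887 named genes, of which 5512 have more than 1, and unnamed probes were kept by transcript. The test took in those whose log2 intensity averaged 6 or more (36947), and 18372 of them were well above background on both 4 h arrays in at least 1 genotype. The share of spots well above background was 43.8% to 46.7% per channel, and the number of arrays limits the precision.

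lmFit and eBayes were run on the ratios of all 8 arrays with 1 coefficient per time point, and p-values were adjusted by Benjamini-Hochberg over all tested. SE is limma's. The replicate number is also the dye orientation, so that replicate and dye cannot be told apart. Differences between same-numbered arrays went together (r = 0.475 to 0.679 over the 6 pairs of time points, across genes), so the numbers were taken as pairs and the fit with the replicate term (paired; replicate block) is given beside the other, with 3 in place of 4 residual degrees of freedom. If the animals were not separate, p-values measure a spread that may be technical. Time points were taken from the titles, since the growth protocol names 4 h for all samples.

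Named genes are those called without the term, the 10 largest changes in each direction with it, preset cytokine and lysozyme genes, up to 3 of each list, up to 5 in each direction per difference between time points, and 3 in each direction that differ most between the 4 h arrays. A gene that this rule names is not reported here. The members and lists were chosen with earlier results of these data known. Alternatives were other background correction, normalization, filters, probe choice, outlier handling and variance prior, the deposited table, the 4 h arrays alone, each array left out, and the methods' t-test. The fits were tested on simulated data, where the fit with the replicate term made more false calls than its nominal rate and the fit without it made none.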

Additional observations from a re-analysis of the deposited data

Results flagged for a closer look

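The KO/WT ratio at 4 h differed from that of unstimulated cells, or from the mean of the other 3 time points, in 13 genes named here, with KO and WT as labelled, each by the test of the difference itself in the fit with the replicate term (limma). None of these differences passed without the term, and none with the term when the processed signals were used. The fit with the term made more false calls on simulated data than its nominal rate. Against unstimulated cells the log2 ratio at 4 h was higher by 1.67 for Nts, 1.64 for Has1, 1.35 for Trem1, 1.78 for Asb4 and 1.19 for Gab1. In the same comparison the differences were -1.24 for Ccl4, -1.13 for Rtp4, -1.13 for Dab2ip and -1.01 for Adm. With the probes of each gene averaged, Nts alone of these passed (adjusted p = 0.0109 with the term), and the adjusted p of the others ran from 0.0506 (Has1 and Asb4) to 0.278 (Dab2ip). Against the mean of the other time points the log2 ratio at 4 h was higher by 1.35 for Nts, 1.36 for Has1, 1.24 for Trem1, 1.27 for Ccno, 1.82 for Abca1, 1.49 for Asb4 and 1.13 for Gab1. The differences were -0.85 for Cd3d and -0.71 for Sgms1. With probes averaged, those of Abca1 (0.0756), Cd3d (0.0756) and Sgms1 (0.0578) did not pass. The adjusted p with the replicate term ran from 0.00181 (Nts) to 0.0443 (Adm).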

How the results depend on the processing

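Without the replicate term, Nts, Has1 and Trem1 passed at 4 h under every alternative except the processed signals, the omission of either 4 h array and the methods' t-test, where none passed (0 higher, 0 lower; 1781 at an unadjusted p under 0.05 with processed signals and 1128 with the t-test, limma used for the first). The replicate block gave 122 higher and 87 lower in place of 4 and 1, and 12 and 19 in place of 0 for the differences from unstimulated cells and from the other time points. With the 4 h arrays alone 36 were higher and 5 lower. The single lower call, Lyz2, became 0 with loess only, Aquantile, genes well above background, outlier spots kept or left out after normalization, and the deposited table. Leaving out 1 array gave 0 to 7 higher, 0 to 1 lower and 0 to 1 for the difference from the other time points. The median of the LPS-raised genes was 0.099 with loess only and 0.062 to 0.085 with 1 array left out. With the replicate block together with another choice, the counts higher and lower were 0 and 0 with processed signals and 60 and 35 with the mean of probes, and 40 were lower among genes well above background. With 1 array left out they ran from 18 to 203 higher and 6 to 185 lower, with 203 and 185 without either 24 h array, 20 and 6 without the 4 h array of replicate 1, and 18 and 8 without that of replicate 2. The difference from unstimulated cells then had 0 calls with processed signals, 4 with loess only, Aquantile or the deposited table, 3 among genes well above background, 1 with the mean of probes and 0 to 35 with 1 array left out. That from the other time points had 0, 9 among genes well above background, 7 with the mean of probes and 1 to 80 with 1 array left out (1 and 11 without a 4 h array, 9 and 11 without an unstimulated array, 80 and 38 without a 24 h array, for replicate 1 and 2). The causes were not tested. The mean log2 ratio of Ephx2 became 0.16 with processed signals, and that of Rtp4 0.050 with loess only or Aquantile and 0.051 with the deposited table. With 1 array left out, the mean 4 h ratios of 16 genes took either sign, with ranges of -0.80 to 0.14 (Arg1), -0.88 to 0.81 (Cd3d), -0.52 to 0.11 (Dab2ip), -3.96 to 2.98 (Ephx2), -4.09 to 2.32 (Hsd3b1), -0.40 to 0.10 (Ifnb1), -0.56 to 0.66 (Il10), -0.19 to 0.28 (Il15), -1.06 to 0.94 (Kbtbd11), -0.62 to 0.095 (Lyz1), -5.18 to 2.06 (Mgarp), -0.21 to 1.39 (Nos2), -0.20 to 0.19 (Rtp4), -1.21 to 0.93 (Tcf7), -0.81 to 0.12 (Tnf) and -1.11 to 1.24 (Vipr1).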

Other observations

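Markers of the remaining cell types gave no member that passed in either test. Of 8 eosinophil markers, 6 were below 0 on both 4 h arrays and 1 above (22.4% and 22.1% of all tested), with a median log2 KO/WT ratio of -0.12. The medians were 0.0016 for 11 neutrophil markers, -0.027 for 8 dendritic cell markers, -0.068 for 7 endothelial markers and -0.12 for 5 red blood cell markers. The summed signal of the red blood cell markers was 1552 units in the RNA labelled WT of replicate 1 and 631 to 864 units in the others.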
